A study of Mus musculus with 5 samples.

Results

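The 10 genes described here encode AP-1 subunits and related products of immediate early genes. They were chosen by symbol, as all probes whose transcript accession maps to Fos, Fosb, Fosl1, Fosl2, Jun, Junb, Jund, Egr1, Atf3 or Ier3. These are 10 of 23779 named genes on the array and 10 of the 17583 that were tested. They were covered by 14 probes, and every gene was read from a probe that exceeded background on each of the 5 arrays by the scanner software's own rule.

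AP-1 is a transcription factor made of pairs of basic leucine zipper (bZIP) proteins, in which a Fos-family protein joins a Jun-family protein on DNA. Fos proteins need a Jun partner to bind, whereas Jun proteins can also pair among themselves or with some ATF proteins. Many of these genes are immediate early genes: growth factor signals through ERK and the serum response factor, and stress signals through JNK, switch them on within minutes without new protein synthesis, and their transcripts decay quickly.

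The samples were mouse gastric organoids, clusters of stomach epithelium grown in culture, 1 Agilent one-colour array each. 2 tumour-derived organoid samples, group shCdh1, combined Trp53 loss with a short hairpin against Cdh1 (hairpin 1 and hairpin 2). 1 sample, Apc, combined Trp53 loss with the allele named Apc580D, and 1 sample, Pik3ca, combined Trp53 loss with the allele Pik3caH1047R. These 4 were grown out of subcutaneous tumours. The control was 1 organoid line from Trp53flox/flox mice that carried the vector pLKO.1 with a luciferase hairpin and was taken before subcutaneous inoculation. The labels name no Trp53 loss for the control, and they name neither the Cre driver nor the number of animals or clones. Every contrast with the control therefore joins Trp53 loss, the second lesion, growth in a mouse and any difference of donor line, and these cannot be told apart. The labels give all 5 samples the same medium with 50 ng/ml epidermal growth factor (EGF), itself an inducer of immediate early genes, and do not give the time since the last feeding.

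Levels are log2 processed signals minus the array's own 75th percentile, so 0 is that percentile, and differences of 1 are 2-fold. Cdh1, the targeted adhesion gene, had levels of 0.07 (hairpin 1), 0.26 (hairpin 2), 4.48 (Apc) and 4.58 (Pik3ca), against 4.39 in the control. Trp53 had levels of -5.06, -5.09, -5.86 and -4.86 in hairpin 1, hairpin 2, Apc and Pik3ca, against 0.85 in the control. The control and both hairpins were hybridised on slide 1, and Apc and Pik3ca on slide 2. All samples are labelled female, but 4 of 4 Y-linked genes were well above background in Pik3ca and 0 of 4 on each other array, so the pooled differences are also given without the library labelled Pik3ca. Gastric epithelium markers, keratins among them, were well above background in 9 of 9 cases on every array. Their summed signal was 553 to 789 times the 75th percentile on the tumour-derived arrays, against 831 in the control. By the mean of the 4 tumour-derived arrays, 1 of the 9 was higher than the control and 8 lower, with a median difference of -0.26. Over all genes tested, 55.4% were higher. Tff1 (-1.51) and Cldn18 (-1.20) were lower on all 4 tumour-derived arrays, and Epcam (0.94) was higher. Leukocyte markers were well above background in 4 to 5 of 7 on the tumour-derived arrays, with a summed signal of 16.0 to 20.9 times the 75th percentile, against 4 of 7 and 11.7 in the control. Ptprc, the marker that defines them, was well above background in both hairpins and Apc only. The leukocyte markers well above background on all 5 arrays did not move together. Their pooled differences from the control were 0.98 for Cd68, 0.28 for Itgam, 0.03 for Cd3e and -0.05 for Csf1r. Fibroblast markers were so in 2 to 4 of 7 on the tumour-derived arrays, summing to 0.100 to 0.239, against 2 of 7 and 0.0781 in the control. Endothelial markers were so in 2 of 5 on every array, summing to 0.0892 to 0.113 on the tumour-derived arrays, against 0.231 in the control. The higher control sum came mainly from Emcn, at -2.54 there and -7.99, -8.03, -8.30 and -8.00 in hairpin 1, hairpin 2, Apc and Pik3ca. The other tested endothelial markers were not lower as a set. Their pooled differences were -0.002 for Pecam1, 1.21 for Cdh5 and 2.76 for Kdr, and only Pecam1 was well above background on all 5 arrays. The part of these cell types in the AP-1 results was not tested, and fewer cells of a type and less RNA per cell cannot be told apart in bulk samples.

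The DNA just upstream of 4 of these genes is shown because it holds the letters of known types of regulatory element. Windows of 250 bases before the annotated start were read from RefSeq (GRCm38.p6) for 8 of the 10 genes, all but Fosl1 and Egr1. Capitals mark matches to TGACGTA, TGACATCA, TTACCTCA, GGAATTTCC and TATAAA, searched on both strands together with TGANTCA, TGACGTCA and GGGCGG. Several of these motifs were chosen with the windows in view. Fos and Atf3 each hold a TGACGTA element, a variant of the cyclic AMP response element, Jun holds 2 ATF/AP-1-type elements, and Ier3 holds a site of the NF-kB type.
Fos, chr12:85473640-85473889, plus strand: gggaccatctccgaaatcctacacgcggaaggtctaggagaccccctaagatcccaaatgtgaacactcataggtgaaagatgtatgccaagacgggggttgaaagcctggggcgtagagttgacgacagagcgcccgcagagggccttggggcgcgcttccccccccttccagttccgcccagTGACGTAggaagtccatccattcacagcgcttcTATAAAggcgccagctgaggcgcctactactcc
Atf3, chr1:191183334-191183583, minus strand: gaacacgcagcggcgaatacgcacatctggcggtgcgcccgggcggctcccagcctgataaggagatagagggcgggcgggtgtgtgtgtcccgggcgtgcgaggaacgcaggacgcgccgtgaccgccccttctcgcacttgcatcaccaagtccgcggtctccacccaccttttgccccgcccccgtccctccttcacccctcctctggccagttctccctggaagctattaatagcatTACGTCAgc
Jun, chr4:95052223-95052472, minus strand: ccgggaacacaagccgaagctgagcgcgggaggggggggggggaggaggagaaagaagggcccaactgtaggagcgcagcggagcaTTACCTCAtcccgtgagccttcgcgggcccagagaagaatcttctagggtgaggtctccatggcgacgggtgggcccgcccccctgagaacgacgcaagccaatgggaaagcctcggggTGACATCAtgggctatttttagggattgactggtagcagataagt
Ier3, chr17:35821463-35821712, plus strand: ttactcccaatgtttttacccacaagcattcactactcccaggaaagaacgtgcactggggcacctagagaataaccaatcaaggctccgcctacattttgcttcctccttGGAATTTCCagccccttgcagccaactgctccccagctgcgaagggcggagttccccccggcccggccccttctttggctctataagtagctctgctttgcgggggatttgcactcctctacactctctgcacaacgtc

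Counted from the annotated start, TGACGTA begins at -66 and TATAAA at -33 in the Fos window. In the Atf3 window the same element lies on the opposite strand, as TACGTCA, at -9. In the Jun window TTACCTCA begins at -164 and TGACATCA at -45, and in the Ier3 window GGAATTTCC begins at -139. Among 32851 windows of this length, TGACGTA occurred in 1.08%, TGACATCA in 2.93%, TTACCTCA in 0.728%, GGAATTTCC in 0.286% and TATAAA in 12.4%. The AP-1 site TGANTCA, present in 6.75% of windows, and the full element TGACGTCA, in 1.55%, had no match in any of the 8 windows. An exact serum response element core, found in 0.0609% of windows, had none either. DNA further upstream was not searched, and Egr1 had no window, so this search cannot decide whether these genes carry such an element. GGGCGG, the GC box, was present in 6 of the 8 and in 32.7% of all windows. These matches describe letters in these windows only.

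The first question was what the tumour-derived organoids shared against the control. 9 of the 10 genes had a higher mean over the 4 tumour-derived arrays, as did 55.4% of all genes tested. Their median difference was 0.53 against 0.06 over all genes tested, and most differences of the 10 genes were under 2-fold. The exception in size was Ier3, 3.34-fold higher, and the exception in direction was Fosl2, 1.63-fold lower by its brighter probe. In limma, 0 of the 10 genes passed an adjusted p of 0.05, and 2 had an unadjusted p below 0.05 (Ier3 and Fosb). Over all genes 0.0227% passed as higher and 0.0967% as lower, and 13.3% had an unadjusted p below 0.05. For 7 genes all 4 tumour-derived arrays lay above the control, as they did for 30.2% of all genes, and for 1 gene, Fosl2, all 4 lay below, as for 24.4% of all genes. Without the Pik3ca library 0 of the 10 genes passed in limma, and the sign of each pooled difference was as with it. The values were then 0.42 for Fos (adjusted p = 0.811), 0.62 for Fosb (0.499), 0.46 for Fosl1 (0.633) and -0.84 for Fosl2 (0.475). They were 0.31 for Jun (0.690), 0.59 for Junb (0.615), 0.23 for Jund (0.773) and 0.69 for Atf3 (0.580), and those of Ier3 and Egr1 stand with these genes. The lone control is assumed in this fit to vary like the tumours, and the p-values measure only the spread between these samples.

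**Figure D1:**
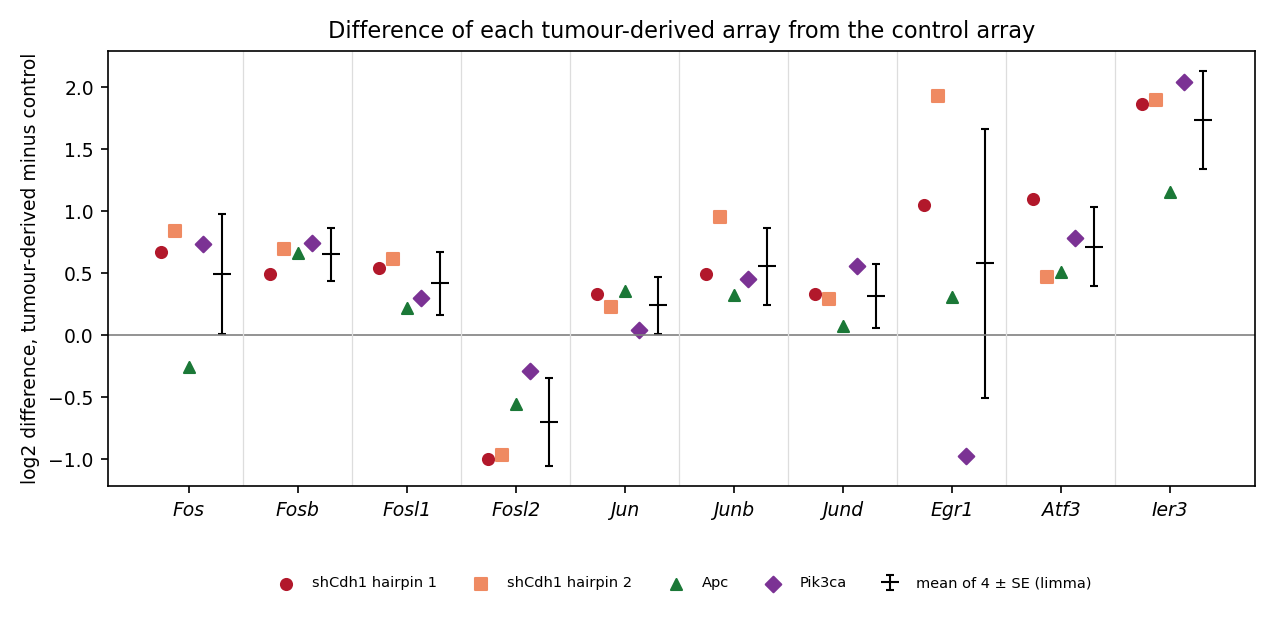
Difference in log2 level of each tumour-derived array from the control array for the 10 genes (vertical axis), with the mean of the 4 and its limma standard error in black. All 4 points lie above 0 for 7 genes and below 0 for Fosl2, while Fos and Egr1 have points on both sides; Ier3 has the largest mean difference, 1.74.

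By median, the 10 genes lay above the control on every tumour-derived array, least in Apc. The median difference of the 10 genes from the control was 0.52 in hairpin 1, 0.66 in hairpin 2, 0.32 in Apc and 0.51 in Pik3ca. Over all genes the median difference was 0.09 for the hairpins together, -0.01 for Apc and 0.06 for Pik3ca. At the level of single arrays, hairpin 1 had 3 of the 10 genes at least 2-fold above the control (Egr1, Atf3 and Ier3), where 8.69% of all genes were. Hairpin 2 had 2 (Egr1 and Ier3), where 11% of all genes were. Apc and Pik3ca had 1 each, Ier3 in both, against 11.3% and 12.1% of all genes. None of the 10 was at least 2-fold below the control on any of the 4 arrays, where 8.64% of all genes were in hairpin 1, 8.34% in hairpin 2, 6.49% in Apc and 10% in Pik3ca. Some fell just short of that threshold. Fosl2 was 1.9975-fold below in hairpin 1 and 1.95-fold in hairpin 2 by its brighter probe, and Egr1 was 1.96-fold below in Pik3ca.

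**Figure D2:**
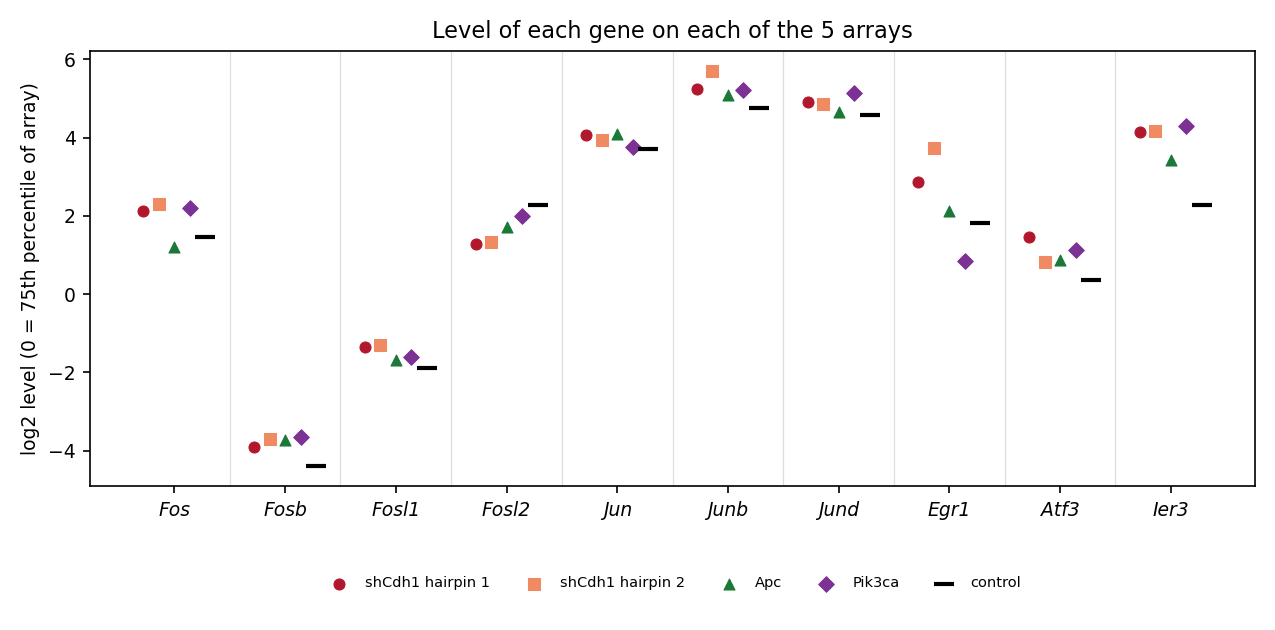
Log2 level of each of the 10 genes on each array (vertical axis, 0 is the array's 75th percentile); coloured points are the 4 tumour-derived arrays and black bars the control. Within a gene the tumour-derived points sit above the control bar for 7 genes, and the widest spread is that of Egr1, from 0.84 to 3.74.

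Ier3, a stress-inducible regulator of cell survival that acts on ERK and Akt signalling and does not itself bind DNA, had the largest difference. Its levels were 4.13 (hairpin 1), 4.17 (hairpin 2), 3.42 (Apc) and 4.31 (Pik3ca), against 2.27 in the control. No tumour-derived array came near the control: the lowest, Apc, was 2.22-fold above it and the highest, Pik3ca, 4.11-fold. The mean of 4.01 ± 0.40 (SD, n = 4) gave a limma difference of 1.74 ± 0.40 (SE, adjusted p = 0.249). By absolute difference Ier3 ranked 1142 of 17583 genes. Without the Pik3ca library the difference was 1.64 ± 0.41 (limma adjusted p = 0.398). With slide as a block in the pooled comparison, the difference was 1.88 ± 0.45 (SE, limma adjusted p = 0.437). That difference rests on slide 1, where both hairpins stand against the control, but its error also draws on Apc and Pik3ca. The hairpins differed from each other by only 0.034 in this gene, against a median gap of 0.31 over all genes.

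Atf3, a stress-induced ATF-family factor that can repress or activate according to its partner, was also above the control on all 4 tumour-derived arrays. It had levels of 1.45 (hairpin 1), 0.82 (hairpin 2), 0.86 (Apc) and 1.13 (Pik3ca), against 0.35 in the control. The mean was 1.06 ± 0.29 (SD, n = 4), and the difference of 0.72 ± 0.32 (SE) did not pass in limma (adjusted p = 0.422). The gap between the hairpins, 0.63, was nearly as large as that difference.

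Among the Fos family, the transforming prototype Fos was higher on 3 of the 4 tumour-derived arrays and not in Apc. Its levels were 2.13 (hairpin 1), 2.30 (hairpin 2), 1.20 (Apc) and 2.19 (Pik3ca), against 1.46 in the control. Apc stood 1.20-fold below the control, whereas the other 3 lay close together, by 0.67 to 0.84 above it. The pooled difference was 0.50 ± 0.48 (SE, limma adjusted p = 0.701). For shCdh1 against the control it was 0.76 ± 0.28 (SE, limma adjusted p = 0.528).

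Fosb, whose product can replace Fos in the dimer and which is usually transcribed at a low basal level, was measured by a dim probe. Its levels were -3.90 (hairpin 1), -3.70 (hairpin 2), -3.73 (Apc) and -3.65 (Pik3ca), against -4.40 in the control. The 4 tumour-derived values spanned less than the gap to the control, with a mean of -3.75 ± 0.11 (SD, n = 4). The difference of 0.65 ± 0.21 (SE) had an unadjusted p of 0.0294 and did not pass in limma (adjusted p = 0.332). It depended on the processing, at 0.30 ± 0.18 with the normexp background correction and 0.50 ± 0.20 with quantile normalization. With neither was the unadjusted limma p below 0.05. The other Fosb probe was not well above background on any array.

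Fosl1, which encodes FRA-1, a factor stabilised by ERK signalling and linked to invasion in epithelial tumours, had levels of -1.36 (hairpin 1), -1.29 (hairpin 2), -1.68 (Apc) and -1.60 (Pik3ca), against -1.90 in the control. All 4 lay above the control, and both hairpins lay above Apc and Pik3ca. The difference of 0.42 ± 0.25 (SE) from the control did not pass in limma (adjusted p = 0.538). That of shCdh1 from the mean of Apc and Pik3ca was 0.32 ± 0.22 (SE, limma adjusted p = 0.983).

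Fosl2, which encodes FRA-2, gave opposite answers from its 2 probes, each above background on all 5 arrays and each designed to the same RefSeq transcript. The brighter, A_55_P2803815, read 1.29 (hairpin 1), 1.32 (hairpin 2), 1.73 (Apc) and 2.00 (Pik3ca), against 2.28 in the control. By this probe all 4 tumour-derived arrays were below the control, the hairpins most, and the difference was -0.70 ± 0.36 (SE, limma adjusted p = 0.470). The dimmer, A_51_P507242, read -1.73 (hairpin 1), -1.90 (hairpin 2), -2.12 (Apc) and -1.70 (Pik3ca), against -2.83 in the control. By this probe all 4 were above the control, and the difference was 0.97 ± 0.26 (SE, unadjusted p = 0.0133, limma adjusted p = 0.277). The direction of Fosl2 is therefore not settled by these data. The positions of the probes in the transcript were not analysed here.

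**Figure D3:**
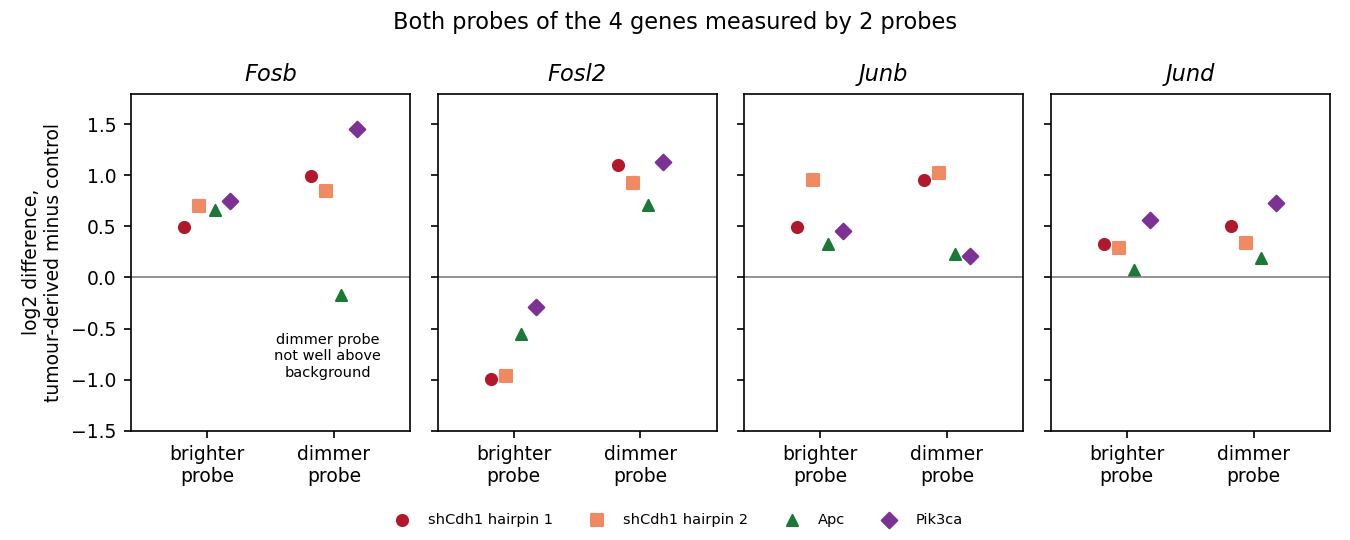
Log2 difference of each tumour-derived array from the control (vertical axis) by the brighter and the dimmer probe of the 4 genes with 2 probes. The points of Fosl2 lie below 0 by the brighter probe (mean -0.70) and above 0 by the dimmer (mean 0.97), those of Junb and Jund lie above 0 by both, and the dimmer Fosb probe was not well above background.

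Among the Jun family, Junb, which restrains Jun in some settings and replaces it in others, had the largest difference. Its levels were 5.25 (hairpin 1), 5.71 (hairpin 2), 5.08 (Apc) and 5.21 (Pik3ca), against 4.76 in the control. Every tumour-derived array was above the control, and hairpin 2, 1.94-fold above it, was highest. The difference of 0.56 ± 0.31 (SE) did not pass in limma (adjusted p = 0.504). Its dimmer probe gave 0.60 ± 0.43 (SE, limma adjusted p = 0.595). By that probe both hairpins, the higher at -0.93, stood clear of Apc (-1.72) and Pik3ca (-1.74), which lay near the control (-1.95).

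Jun, the partner that most Fos dimers use and the main substrate of JNK, hardly varied. Its levels were 4.06 (hairpin 1), 3.95 (hairpin 2), 4.08 (Apc) and 3.77 (Pik3ca), against 3.72 in the control. The range over the 5 arrays, 0.36, was smaller than the median range of 0.82 over all genes, and the difference of 0.24 ± 0.23 (SE) did not pass in limma (adjusted p = 0.695). In Pik3ca the gap to the control was only 0.044 and its sign turned under quantile normalization (-0.077).

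Jund, a Jun-family member that is present in resting cells and slows proliferation in several cell types, had levels of 4.91 (hairpin 1), 4.87 (hairpin 2), 4.66 (Apc) and 5.14 (Pik3ca), against 4.58 in the control. Apc exceeded the control by only 0.077 and Pik3ca by 0.56. The difference of 0.31 ± 0.26 (SE) did not pass in limma (adjusted p = 0.647). The second Jund probe gave 0.44 ± 0.28 (SE, limma adjusted p = 0.556), with all 4 arrays again above the control.

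Egr1, a zinc finger factor induced by ERK through the serum response factor and not an AP-1 subunit, differed most among the tumours. Its levels were 2.87 (hairpin 1), 3.74 (hairpin 2), 2.13 (Apc) and 0.84 (Pik3ca), against 1.81 in the control. Both hairpins were above every other array, by 1.05 and 1.93 over the control on the log2 scale, while Pik3ca was 1.96-fold below the control. The range over the 5 arrays was 2.90, wider than in 91.6% of genes tested. The pooled difference of 0.58 ± 1.09 (SE, limma adjusted p = 0.852) averages over these opposite signs, and without the Pik3ca library Egr1 was 2.14-fold higher (limma adjusted p = 0.639). Without hairpin 2 the difference was 0.13.

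The question of whether the Cdh1-knockdown tumours differed from those that keep Cdh1 was asked by setting shCdh1 against the mean of Apc and Pik3ca. The error comes from the hairpin pair (1 residual degree of freedom), moderated over all genes, and the slide differs between these groups, so slide and genotype cannot be told apart. Egr1 had the largest difference of the 10 genes, 3.53-fold higher in shCdh1 (1.82 ± 0.42, SE), with an unadjusted p of 0.0234, and did not pass in limma (adjusted p = 0.689). It ranked 525 of 17583 genes by absolute difference. The hairpins themselves differed by 0.88 in this gene. Without the Pik3ca library the Egr1 difference was 1.18 ± 0.52 (SE, limma adjusted p = 0.946).

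For 3 of the 10 genes, Fosl1, Junb and Egr1, both hairpins lay above Apc and Pik3ca, as in 20.2% of all genes, and above the control as well, as in 12.7%. For 1, Fosl2, both lay below Apc and Pik3ca, as in 13.1% of all genes. Fosl2 was -0.56 ± 0.22 (SE, limma adjusted p = 0.911) in shCdh1 against Apc and Pik3ca by its brighter probe. Fos was 0.52 ± 0.23 higher (SE, limma adjusted p = 0.949), and Pik3ca (2.19) lay between the hairpins (2.13 and 2.30). This Fos difference was 0.023 without the Apc library and 1.01 without the Pik3ca library. Across the genotype contrasts, 0 of the 10 genes and 0% of all genes passed in limma in either direction. Unadjusted p-values below 0.05 were reached by 2 of the 10 for shCdh1 against the control, Ier3 and, by its brighter probe, Fosl2. The dimmer Fosl2 probe went the other way in that contrast (1.01). The counts were 1 for Apc (Ier3), 1 for Pik3ca (Ier3) and 1 for shCdh1 against the other tumours (Egr1). Over all genes, 9.74%, 9.02%, 11.5% and 6.03% had such a p-value, in the same order.

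Genes that share an immediate early or bZIP role were read from lists. In the pooled comparison 55.4% of all genes tested were higher, the share to set beside each list count below. Of 28 other immediate early genes, 27 were tested and 21 were higher than the control, with a median difference of 0.43 against 0.06 over all genes, and 0 passed in limma in either direction. For 16 of the 27 all 4 tumour-derived arrays lay above the control, and for 2 all 4 lay below, against 30.2% and 24.4% of all genes. The 4 largest were the glucocorticoid- and serum-induced kinase Sgk1 (1.48 ± 0.38), the ERK and JNK phosphatase Dusp1 (1.48 ± 0.55), the TGF-beta-induced repressor Klf10 (1.25 ± 0.32) and Zfp36, which encodes the mRNA-decay factor tristetraprolin that acts on AU-rich transcripts (1.22 ± 0.32). Zfp36 had levels of 1.94, 1.84, 1.28 and 1.64 in hairpin 1, hairpin 2, Apc and Pik3ca, against 0.46 in the control. Among the genes of this list that were lower, Btg2, an antiproliferative p53 target, was at -0.64 ± 0.29.

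Other bZIP factors, from families that pair with Fos or Jun proteins or share their DNA sites, were read in the same way. Of 18 listed, 17 were tested, 12 higher and 5 lower, with a median of 0.27 against 0.06 over all genes, and 0 passed in limma. For 6 of the 17 all 4 tumour-derived arrays lay above the control, and for 3 all 4 lay below, against 30.2% and 24.4% of all genes. Maff, a small Maf protein without a transactivation domain, was 2.29-fold higher (1.19 ± 0.29), with levels of 1.98, 1.92, 1.94 and 2.43 in hairpin 1, hairpin 2, Apc and Pik3ca, against 0.87 in the control. Nfe2l2, which encodes the oxidative stress regulator NRF2, was 2.60-fold lower (-1.38 ± 0.25, limma adjusted p = 0.222), with levels of 3.50, 3.95, 3.71 and 3.62 on the same arrays, against 5.07 in the control. Mafk was at 0.61 ± 0.29 and Atf1 at 0.50 ± 0.27.

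Transcripts of the kinases and serum response factor partners upstream of these genes lay on both sides of the control. All 18 listed were tested, 11 higher and 7 lower, with a median of 0.03 against 0.06 over all genes. For 7 of them all 4 tumour-derived arrays lay above the control, and for 5 all 4 lay below, against 30.2% and 24.4% of all genes. Those with the largest differences were Mapk9, which encodes JNK2 (-0.74 ± 0.24), the ETS factor Elk3 (0.65 ± 0.53), the JNK activators Map2k4 (-0.47 ± 0.21) and Map2k7 (0.45 ± 0.26), and 0 of the 18 passed in limma. Transcript levels do not report the phosphorylation through which these proteins act.

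Of 14 genes reported elsewhere as AP-1 targets, 9 were tested, 8 of them higher and 1 lower, with a median of 0.36 and 0 past the threshold in limma. For 4 of the 9 all 4 tumour-derived arrays lay above the control, and for 1 all 4 lay below, against 30.2% and 24.4% of all genes. In Apc alone 5 of the 9 were higher than the control and 4 lower, where 49.3% of all genes were higher. Plau, the urokinase plasminogen activator, was 6.54-fold higher (2.71 ± 0.52, limma adjusted p = 0.222), with levels of -1.20, -0.08, -0.37 and 0.02 in hairpin 1, hairpin 2, Apc and Pik3ca, against -3.12 in the control. Timp1, an inhibitor of matrix proteases, was 3.38-fold higher (1.76 ± 0.47), and Cd44 (0.74 ± 0.51) and Hmga1 (0.58 ± 0.25) followed. Mmp3, Mmp9, Mmp10, Mmp13 and Il6 were not well above background on any array.

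Heat shock genes, which respond to protein damage and to handling, were read beside the AP-1 genes. Hspa1a had levels of 3.23, 1.65, 2.60 and 3.25 in hairpin 1, hairpin 2, Apc and Pik3ca, against -0.18 in the control. Of the 6 listed, 4 were higher and 2 lower, with a median of 1.38 and 0 past the threshold in limma. The list was split, and no gene lay near that median. Pooled differences were 3.32 ± 1.00 for Hspb1, 2.86 ± 0.69 for Hspa1a and 2.36 ± 0.45 for Hspa1b. They were 0.40 ± 0.28 for Hsph1, -0.04 ± 0.23 for Hspa8 and -0.56 ± 0.25 for Dnajb1. The part of the heat shock genes in the AP-1 differences was not tested.

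**Figure D4:**
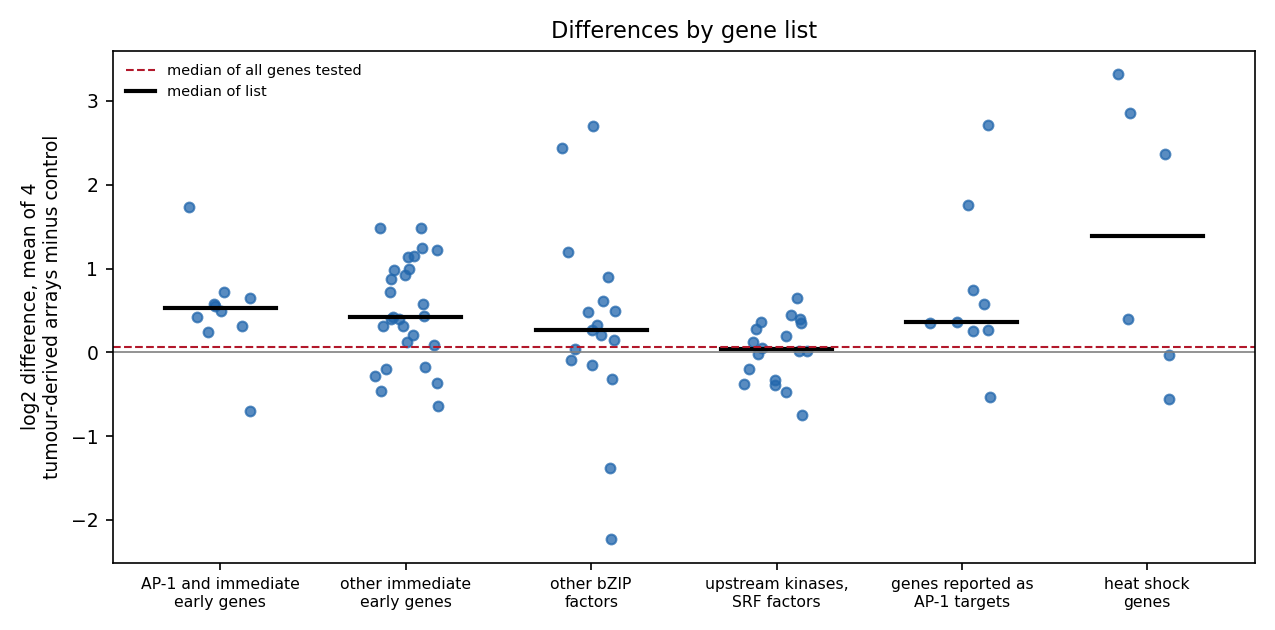
Log2 difference of the mean of the 4 tumour-derived arrays from the control (vertical axis) for each tested gene of 6 lists; black bars are list medians and the dashed red line is the median of all genes, 0.06. The AP-1 and immediate early list (0.53) and the other immediate early genes (0.43) sit above that line. So do the heat shock genes (1.38), the genes reported as AP-1 targets (0.36) and the other bZIP factors (0.27), while the upstream kinases (0.03) do not.

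For the genes with the widest range, Egr1 and Ier3, the 5 genes with the most similar pattern were taken by root-mean-square distance between levels centred over the 5 arrays, among 13304 genes well above background on all 5, leaving out the 10 members and genes with clone-type names. For Egr1 these included Irak3 (distance 0.208), a brake on Toll-like receptor signalling, Bicc1 (0.297), an RNA-binding protein, Slc10a2 (0.333), the bile acid transporter, and Ccl20 (0.380), a chemokine. Like Egr1, these 4 were highest in hairpin 2 and lowest in Pik3ca. For Ier3 the nearest were Pnp2 (0.123), a purine nucleoside phosphorylase, Mtmr11 (0.124), Cep170 (0.133), a centrosomal protein, Pax9 (0.146), a foregut transcription factor, and Ccng2 (0.152), a cyclin G. In each of these 5 the control was the lowest array and Apc the lowest tumour-derived one. The ordering describes 5 arrays, carries no test and was made over all candidate genes. Because the genes were picked for nearness to Egr1 or Ier3, their shared high and low arrays follow from that choice and are not a separate result.

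**Figure D5:**
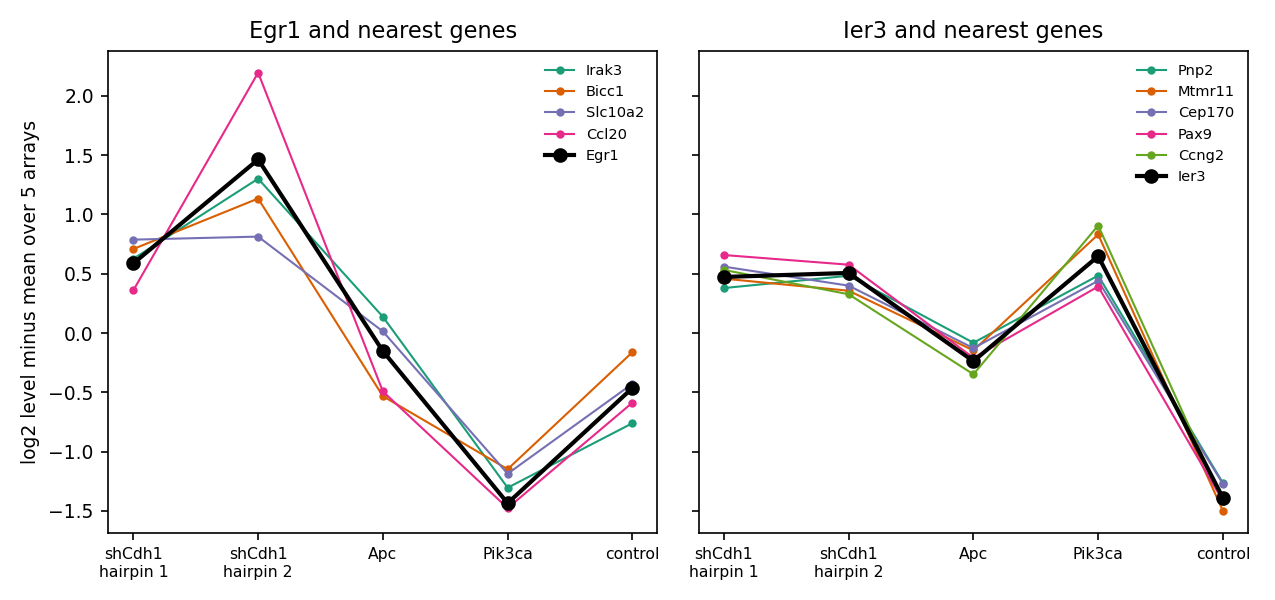
Log2 level minus the gene's mean over the 5 arrays (vertical axis) for Egr1 (with 4 of its nearest genes) and Ier3 (with its 5 nearest), by array; the black lines are Egr1 and Ier3. The Egr1 set peaks in hairpin 2 and is lowest in Pik3ca, and the Ier3 set is lowest in the control, as follows from picking genes by their likeness to these patterns.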

How the data were processed

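Per the labels' protocols, RNA was extracted on RNeasy columns and 0.2 µg was amplified into Cy3-labelled cRNA. The submitters' processing notes name Agilent Feature Extraction 11.0.1.1 for the scans. The deposited scanner files hold a processed intensity for each spot, from which background was subtracted and which was not scaled between arrays, per the file headers. The authors also deposited log2 values with an unstated baseline taken from each probe. The medians of those values were 0.074 in hairpin 1, 0.031 in hairpin 2, -0.080 in Apc, 0.022 in Pik3ca and -0.057 in the control. Their tumour-minus-control differences followed the scanner files with a slope and correlation of 1, which settles direction and scale, and the baseline stays unknown.

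Levels are log2 processed signals less the 75th percentile of each array's 59305 spots. Outlier spots (78 to 114 per array) were left out, 0 were saturated, and repeated spots were averaged. Of 56605 probes, 32 lacked a usable value, 34549 matched 1 symbol by accession in a RefSeq table (GRCm38.p6, names only) and 22024 matched none or several. The probe of highest mean signal stood for a gene. A gene was tested, 17583 in all, when 1 or more of its probes exceeded background on any array. Each array had 61.8% to 65.3% of its spots above background, and precision is limited by the number of arrays.

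Comparisons used limma 3.58.1 in R 4.3.3 (lmFit, eBayes, two-sided, Benjamini-Hochberg over all genes tested, threshold 0.05), checked on simulated data. The 4 tumour-derived arrays were set against the control in 1 fit (3 residual degrees of freedom). Genotypes were compared in another (1 residual degree of freedom), which takes a lone array to be as variable as the hairpins. Errors after ± are standard errors unless marked SD. Named genes were all 10 members, up to 4 per other list with the largest pooled difference where all 5 arrays exceeded background, and the 5 nearest genes of the 2 members of widest range. Btg2, Hsph1, Hspa8 and the targets below background were named after their values were seen. One of the genes nearest to Egr1 is not reported here. The members and lists were chosen with earlier results of these data known. Alternatives were the background correction (normexp with an offset of 50, on median spot signals because the files hold no mean signal), quantile normalization, the filter and floor on dim signals, the probe rule, the deposited log2 values, slide as a block and leaving out each array.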

Additional observations from a re-analysis of the deposited data

Results flagged for a closer look

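Fos stood apart in Apc among the 4 tumour-derived arrays. Its level there was 1.20, while the other 3 lay between 2.13 and 2.30, and this gap was above the critical value of the Dixon test for 4 values, which chance exceeds in about 1 of 20 groups. Fos was 1 of the 10 genes screened in this way, and 5.85% of all genes tested met the same rule. Fos was also lower than the control in Apc (-0.26) and higher in both shCdh1 arrays and in Pik3ca, so the signs differ between genotypes. The difference between Apc and the other genotypes was not tested.

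Egr1 was lower than the control in Pik3ca (-0.97) and higher in both shCdh1 arrays (1.05 and 1.93) and in Apc (0.31). This difference in sign was not tested either, and Pik3ca is 1 array, the one whose Y-linked genes go against its label.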

How the results depend on the processing

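No paired analysis was possible because hairpin numbers are carried by 1 group only. In 600 recomputed differences of the 10 genes, 0 crossed the threshold in either direction and 19 changed sign. Many of the 600 could not change in value. The filter and floor settings left these genes' levels as they were, and the probe rule cannot move genes with 1 probe. Leaving out an array does not change a contrast that does not use it. Among values with no test, 2 moved by more than their standard error. Values with a test could move that far uncounted, as pooled Fosb did, from 0.65 ± 0.21 to 0.30 with normexp. For Ier3 against the control in the pooled comparison the range over 13 alternatives was 1.64 to 1.93 (limma adjusted p between 0.147 and 0.437).

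The number of genes passing in the pooled comparison, 21, was 48 with normexp (9 higher, 39 lower), 49 with dim signals raised to a floor, 7 when dim genes were left out more strictly (14584 genes above background throughout), and 0 with slide as a block (1821 with an unadjusted p below 0.05). Leaving out 1 array gave 0 to 19: 0 without hairpin 1, hairpin 2 or Pik3ca and 19 without Apc. The median difference of the 10 genes in that comparison ranged from 0.37 (without hairpin 2) to 0.64 when 1 array was left out. For shCdh1 against the control it ranged from 0.52 to 0.66, and for shCdh1 against the other tumours from 0.013 (without Apc) to 0.32. For Pik3ca against the control it was 0.51, and 0.32 with quantile normalization. With the dimmer probe of Fosb, Fosl2, Junb and Jund, an alternative chosen after seeing the data, it was 0.73 for Pik3ca and 0.85 for shCdh1.

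The largest values among the sign changes were those of Fosl2. For Fosl2 the mean over its probes gave 0.13 in the pooled comparison and 0.016, 0.077 and 0.42 for shCdh1, Apc and Pik3ca against the control. Its dimmer probe gave 0.97, 1.01, 0.71 and 1.13 in the same order and 0.092 for shCdh1 against the other tumours. Fosb in shCdh1 against the other tumours was 0.0063 with normexp, 0.085 with the mean over probes and 0.28 with the dimmer probe, which put Fosb in Apc at -0.18. Jun in Pik3ca was -0.077 with quantile normalization. In shCdh1 against the other tumours, leaving out 1 array gave -0.18 (without hairpin 1) to 0.45 for Atf3, -0.25 to 0.23 (without Pik3ca) for Jund, with 0.010 without hairpin 2, -0.16 (without Apc) to 0.73 for Ier3, and -0.077 (without Pik3ca) to 0.24 for Jun. The causes were not tested.

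Only shCdh1 has more than 1 array. Without either hairpin the genotype fit has no residual degrees of freedom and gives values with no test, and slide could not be fitted as a block in the Apc and Pik3ca contrasts.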
